A study of Homo sapiens with 24 samples.

Results

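Multi-exon m6A peaks that were listed only in pancreatic progenitors (PPs) lacking ALKBH5 were examined. A peak was included when its A5-KO PP entry held at least 32 input reads, when it touched 2 or more merged exons of its gene in GENCODE 44, and when no base of its span was shared on the same strand with a WT PP peak. These criteria gave 5948 peaks on 4426 genes, called members here, out of 228472 peaks in the 6 deposited lists and 55219 peaks in the A5-KO PP list. With exons of the longest isoform in place of merged exons they gave 3328 peaks. They were 5948 of the 9715 multi-exon A5-KO PP peaks with this many input reads (61.2%), and among all 27832 A5-KO PP peaks at this depth 41.4% had no base in common with WT PP. Input reads, exon number and absence from WT PP chose the peaks, so these values are given as a description without a test.

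The series followed MEL1 INSGFP/W, a human embryonic stem cell line with GFP knocked into the insulin gene, through pancreatic differentiation. hPSC, definitive endoderm (DE), PP and human islet-like organoids (hILO) formed one batch, for which mRNA and a SYSY antibody were used. WT PP and A5-KO PP formed a second batch, for which total RNA, a Millipore antibody, rRNA-depleted input and another library kit were used. Each of the 6 populations had 2 IP and 2 input libraries, but 1 peak list with reads pooled over libraries, so the spread between replicate libraries is unknown. A5-KO cells were made with CRISPR-Cpf1, and the WT cells were wild type for ALKBH5, and the labels give MEL1 for both. Both went through the same differentiation to PP. The study made 2 knockout lines, and the labels name A5-KO for these libraries, so that line and genotype cannot be told apart.

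m6A is placed on adenosines in DRACH sequences by a methyltransferase complex around METTL3 and METTL14, and is removed by the demethylase ALKBH5. In most human mRNAs m6A lies in long internal exons and near the stop codon, and exon junction complexes bound beside splice junctions keep the methyltransferase away from short internal exons. A peak that crosses exon borders therefore covers a kind of sequence that is usually poor in m6A.

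GGACT is a frequent form of DRACH, and where it lies across an exon junction it exists only in spliced RNA. It crossed an annotated junction with 15 nt of exon on both sides in 39 members. Members held 4912 such junctions, a count of junctions and not of peaks. No such count is given for other peaks, so 39 is not read as many or few. The 4 with the most input reads are shown to make such a junction visible, as 30 nt of the GRCh38 genome in transcript orientation, 15 nt from each exon, with GGACT in capitals:
CNTLN: ggcaagaccccaaaGGACTattttcatgat
LINC00698: ggtcaacgaactacGGACTctgcttaccct
MYOM1: tggctcctcccatGGACTtacagattccag
PHF14: agcaagagtaatgaGGACTcgctgattctt
CNTLN, a centriole protein, was joined from chr9:17409459-17409473 and chr9:17415788-17415802 on the plus strand, and its peak held 1926 input and 6544 IP reads. LINC00698, a long noncoding RNA, was joined from chr3:62953766-62953780 and chr3:62985036-62985050 on the plus strand, with 818 input and 2747 IP reads. MYOM1, a protein of the sarcomeric M band, was joined from chr18:3193944-3193958 and chr18:3214934-3214948 on the minus strand, with 687 input and 1199 IP reads. These 3 peaks had deposited log2 enrichments of 5.10, 4.73 and 3.83. PHF14, a chromatin reader, was joined from chr7:10983145-10983159 and chr7:10990703-10990717 on the plus strand, with 587 input and 280 IP reads, more input than IP, and a log2 enrichment of 1.83. The PHF14 peak overlapped a peak in all 4 stages, the CNTLN peak in 1 stage and the other two in none. The exonic midpoints of the CNTLN, MYOM1 and PHF14 peaks lay in coding sequence. At any position, GGACT was present on the transcript strand in 20.0% of members (95% Wilson interval 19.0 to 21.0) and in 36.4% (34.9 to 38.0) of the multi-exon A5-KO PP peaks that did overlap WT PP, which were longer. At an equal exonic length of 175 nt the shares were 18.2% (16.8 to 19.6) and 18.9% (16.4 to 21.7).

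The labels were checked first. In WT PP the ALKBH5 gene had 4 peaks with 289 input and 836 IP reads. The A5-KO PP list gave it 5 peaks with 1 input and 592 IP reads, none of them a member. All 10 PP markers, among them PDX1 and NKX6-1, had a peak in both lists (values for WT PP come first). Their summed input reads numbered 45084 and 25775. Liver markers had peaks on 8 of 10 genes in each list, not all the same ones, with 30546 and 3481 input reads in sum. Input reads were lower in A5-KO PP for TTR (15675 and 250), TF (8031 and 358), FGA (5572 and 862) and SERPINA1 (340 and 50). They were higher for FGB (71 and 874), AFP (0 and 88) and APOB (854 and 988). These are reads inside peaks, which differ between the lists, and not RNA levels of whole genes. By RNA-seq the study reported higher ALB and AFP in A5-KO PPs, and by staining more ALB-positive cells. APOA1 had a peak only in WT PP and AHSG only in A5-KO PP, and ALB, the defining gene of hepatocytes, had none in either. Of 6 pluripotency and endoderm genes only SOX17 (1181 and 2 input reads) and CXCR4 (778 and 795) had peaks, in both lists, and POU5F1 had none. In bulk RNA fewer cells of a type and less RNA per cell cannot be told apart. The A5-KO PP list was shallower, with 12716287 input reads inside peaks against 19034654 in WT PP and a median of 33 against 80 input reads per peak. Multi-exon peaks made up 38.5% of A5-KO PP, 22.9% of WT PP and 20.4% to 29.4% of the stage lists. Peaks with no input read made up 24.6% of A5-KO PP and 11.5% of WT PP. The part of composition, depth or genotype in the peaks described here was not tested.

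The input minimum decided much of the set. Without it 14796 multi-exon A5-KO PP peaks had no base in common with WT PP, of which 8848 had fewer than 32 input reads and 5005 had none. Just inside the minimum, at 32 to 33 input reads, 106 peaks had a median of 94.5 IP reads (range 29 to 1430) and a median log2 enrichment of 3.65. Just outside, at 30 to 31 input reads, 109 peaks had a median of 113 IP reads (range 24 to 1115) and a median log2 enrichment of 4.11. Values on both sides of the minimum thus overlapped over nearly their whole range.

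For comparison 3 sets of peaks were used. These were the 3767 multi-exon A5-KO PP peaks of the same input depth that overlapped WT PP (shared multi-exon peaks), the 5497 single-exon A5-KO PP peaks without overlap, and the 1960 multi-exon WT PP peaks without overlap in A5-KO PP. The last had at least 50 input reads because WT PP was deeper. Intervals below are 95% intervals, Wilson for shares and from order statistics for medians. They cover counting and sampling error only, since peaks of 1 gene share their RNA and peaks are not replicates.

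Long noncoding RNAs carried 29.1% of members (1731 peaks, interval 28.0 to 30.3) and protein-coding genes 68.7% (4089 peaks, 67.6 to 69.9). The remaining 2.15% lay on pseudogenes. In the comparison sets lncRNAs carried 8.84% (7.97 to 9.79) of shared multi-exon peaks, 12.95% (12.1 to 13.9) of single-exon A5-KO PP peaks and 8.11% (6.98 to 9.40) of WT PP multi-exon peaks. The interval of the members lay above all 3. Several gene IDs were listed for 12.6% of members, so their reads could belong to an overlapping gene. Genes with a member were long, with a median of 87880 nt (84344 to 91791), against 71615 nt for genes of shared multi-exon peaks and 44199 nt for genes of single-exon A5-KO PP peaks. Of the 4426 genes, 1580 (35.7%, 34.3 to 37.1) had no peak in any of the other 5 lists, while this held for 14.6% of the 13264 genes with any A5-KO PP peak of this depth.

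**Figure D1:**
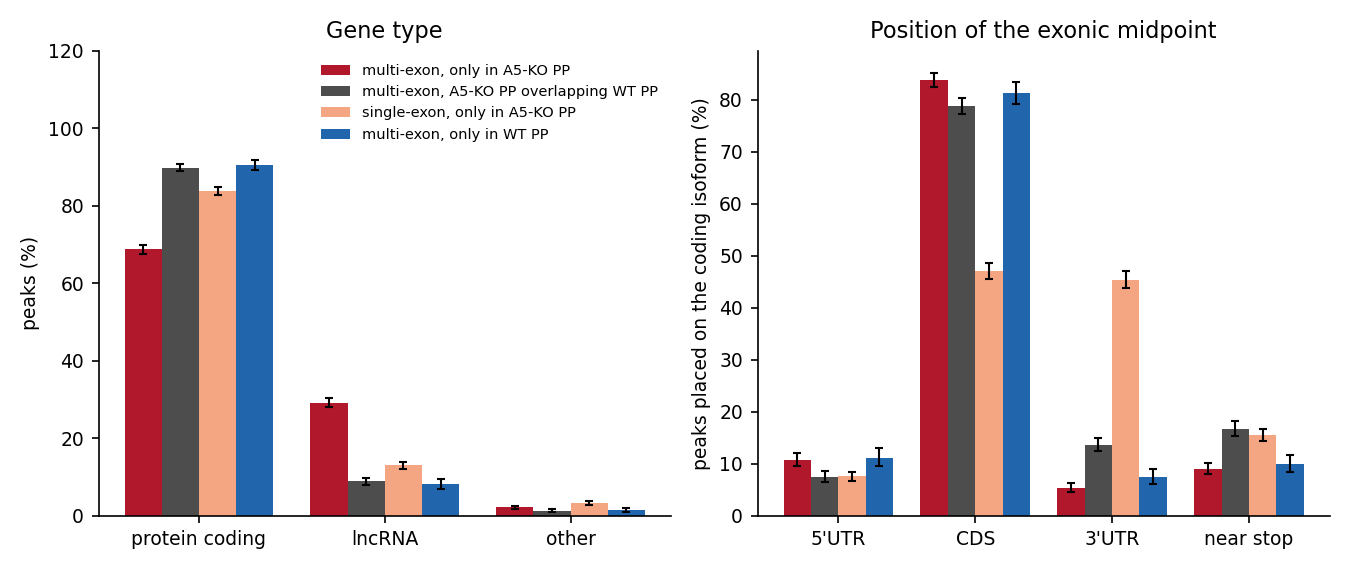
Left, share of peaks (%) on protein-coding, lncRNA and other genes; right, share of peaks (%) with the exonic midpoint in each region of the longest coding isoform or within 200 nt of the stop codon, for 4 sets of peaks; bars are shares and error bars 95% Wilson intervals. The lncRNA bar of multi-exon peaks only in A5-KO PP stands at 29.1%, above the other sets, and their 3'UTR bar is the lowest at 5.41%.

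Members on lncRNAs held fewer reads. The median input was 159 reads (151 to 166) on protein-coding genes and 118 (110 to 127) on lncRNAs, and the median IP 326 (305 to 344) and 272 reads (252 to 302). The intervals of the median log2 enrichment overlapped, at 3.72 (3.66 to 3.79) and 3.79 (3.69 to 3.87). Spans were longer on lncRNAs, with a median of 24280 nt (22621 to 25894) against 14680 nt (13752 to 15632). A WT PP peak elsewhere on the gene was found for 63.9% of protein-coding genes with a member and for 18.1% of lncRNA genes with a member.

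The exons under the members were shorter than those under the comparison sets, though not than the other exons of the same genes. The median length of the exons touched was 195 nt (190 to 200), against 366 nt (350 to 383) for shared multi-exon peaks, 249 nt (237 to 260) for WT PP multi-exon peaks and 1288 nt (1223 to 1349) for single-exon A5-KO PP peaks. These are medians over peaks of the median exon in each. Counted exon by exon, 9.60% of the 14725 exons touched by members reached 1000 nt, against 8.40% of the 59317 other exons of the same genes, whose median was 149 nt (148 to 150). Under the single-exon peaks 55.9% of exons reached it. Touching 2 or more exons was part of the choice, and it depends on exon size.

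**Figure D2:**
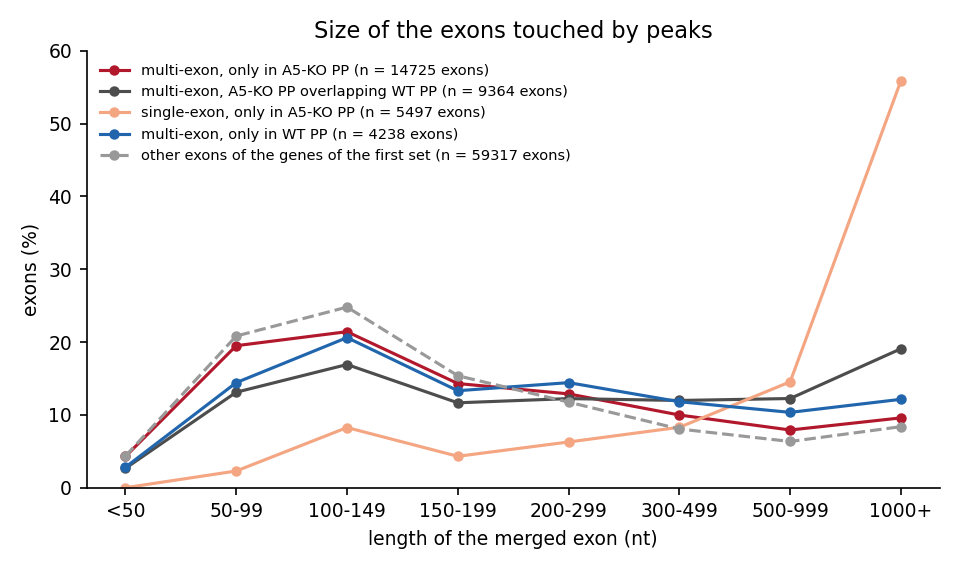
Share of exons (%) in 8 classes of merged exon length (nt) for the exons touched by 4 sets of peaks, and, dashed, for the other exons of genes carrying multi-exon peaks only in A5-KO PP. The curve of these peaks runs close to the dashed curve, with 21.4% against 24.8% of exons at 100 to 149 nt, while the single-exon peaks rise to 55.9% at 1000 nt and more.

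Members spanned 2 exons in 68.3% of cases (4063 peaks), 3 exons in 22.7%, 4 in 6.09%, 5 in 1.56% and 6 or more in 1.31%. Their most frequent exonic length was 175 nt, held by 52.0% (50.7 to 53.3), against 22.6% of shared multi-exon peaks and 23.1% of WT PP multi-exon peaks. The peak caller works in steps of 25 nt, and the exonic length of 92.3% of members was a multiple of it. Introns filled most of the spans, with a median of 17058 nt of intron per member (16347 to 17928), 4549 nt per shared multi-exon peak and 1959 nt per WT PP multi-exon peak. Across members input reads and intron length were nearly unrelated (Spearman rho -0.03 over 5948 peaks from the same libraries, given as a description).

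The exon border sat at the centre of most members of 2 exons and 175 nt. This length equals a step of 25 nt with 75 nt on either side. In the 2395 members of this shape, the border was a median of 88 nt from the 5' end, and 90% of borders lay between 76 and 99 nt. It fell in the middle 25 nt in 96.6% (95.8 to 97.3), against 79.5% (76.3 to 82.3) of 693 shared multi-exon peaks and 71.3% (66.5 to 75.7) of 366 WT PP multi-exon peaks of the same shape. The 3 intervals did not overlap, and in each set the central 25 nt held most of the borders. The part of the peak caller in this placement was not tested. All exon borders of a member were joined in an annotated transcript for 57.2% (55.9 to 58.4), against 62.6% and 64.3% in the other two multi-exon sets.

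**Figure D3:**
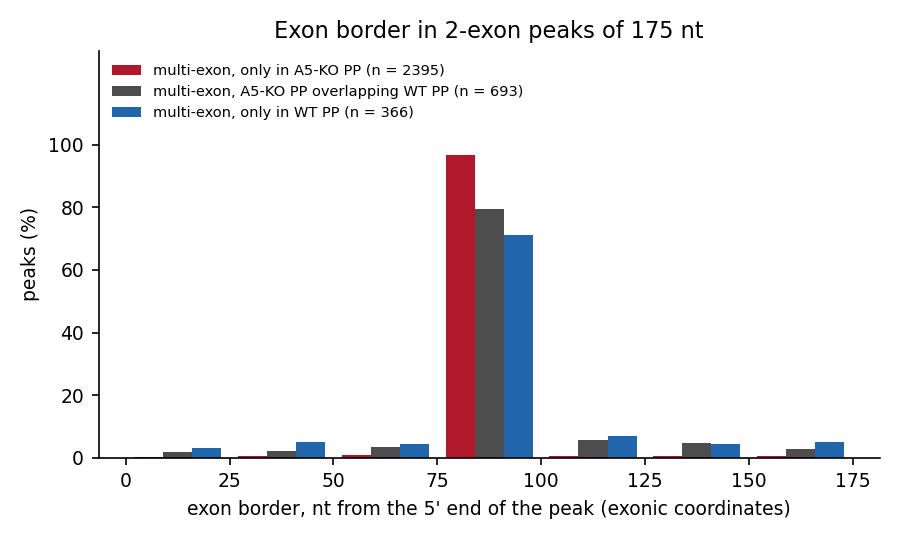
Share of 2-exon peaks of 175 nt exonic length (%) by the distance (nt) of the exon border from the 5' end of the peak, in steps of 25 nt, for the 3 multi-exon sets. The step from 75 to 100 nt holds 96.6% of the 2395 peaks only in A5-KO PP, 79.4% of the shared peaks and 71.3% of the peaks only in WT PP, and every other step is below 8%.

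On protein-coding genes 64.7% of members could be placed on the longest coding isoform (2644 peaks). Of these 83.9% (82.4 to 85.2) lay in the CDS, 10.7% (9.62 to 12.0) in the 5'UTR and 5.41% (4.61 to 6.34) in the 3'UTR. Within 200 nt of the stop codon lay 8.96% (7.93 to 10.1), against 16.7% (15.4 to 18.2) of shared multi-exon peaks and 15.5% (14.4 to 16.7) of single-exon A5-KO PP peaks. WT PP multi-exon peaks had 9.87% (8.36 to 11.6) there, an interval that overlapped the one of the members. The first exon of the gene was touched by 21.0% (20.0 to 22.1) of members and the last by 17.4% (16.5 to 18.4). Among shared multi-exon peaks these shares were 15.2% and 23.4%, and among WT PP multi-exon peaks 17.6% (15.98 to 19.35) and 14.4% (12.90 to 16.01), so the last-exon share of members lay between the 2 sets.

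Most members were absent from the differentiation series. An hPSC peak shared a base with 6.96% of members (interval 6.34 to 7.64). For DE the share was 7.16% (6.53 to 7.85), for PP it was 5.30% (4.76 to 5.89), and for hILO it was 8.91% (8.21 to 9.66). With an IP/input ratio of at least 3 in every list the share was 5.58% for hILO and 6.41% for hPSC. With p below 1e-05 in every list it was 8.97% for PP and 15.8% for hILO. Over all A5-KO PP peaks of this depth the shares were 42.0%, 38.2%, 34.1% and 37.1%. No stage had an overlapping peak for 84.6% of members (5032 peaks, 83.7 to 85.5), against 44.9% of all A5-KO PP peaks. Only 125 members had one in all 4 stages, against 22.0% of all A5-KO PP peaks. WT PP multi-exon peaks, chosen by absence from the other list in the same way, overlapped the stages in 18.9% to 21.6%. Since the stages differ from the knockout batch in RNA, antibody and kit, batch and genotype cannot be told apart in the comparison with the stages. The absence was partly one of whole genes, as 37.1% (PP) to 44.9% (hILO) of genes with a member had any peak in a stage, against 62.4% (PP) to 69.0% (hPSC) of all genes with an A5-KO PP peak of this depth and 81.9% to 85.7% of genes with a shared multi-exon peak.

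**Figure D4:**
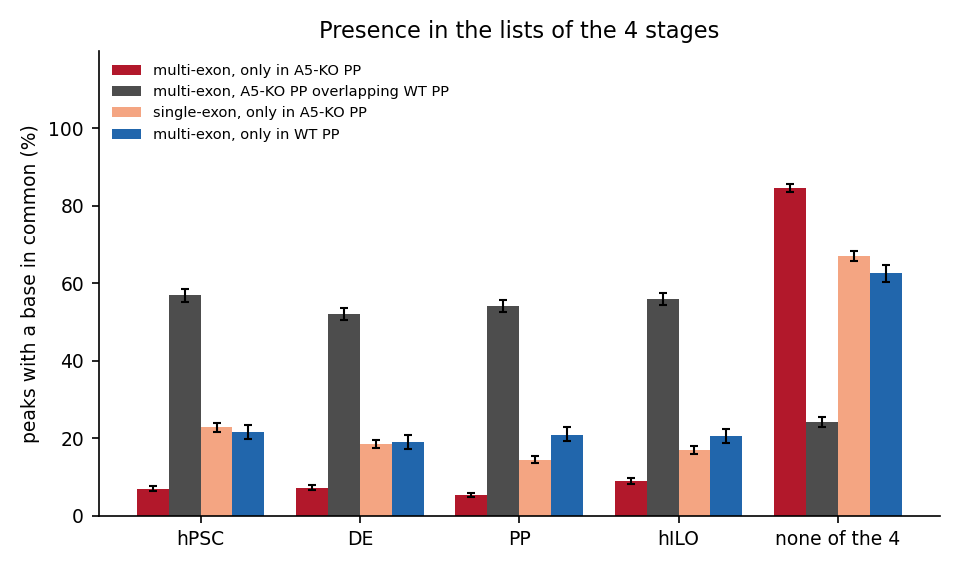
Share of peaks (%) with a base in common on the same strand with a peak of hPSC, DE, PP or hILO, and with none of the 4, for 4 sets of peaks; error bars are 95% Wilson intervals. Multi-exon peaks only in A5-KO PP lie between 5.30% and 8.91% in the 4 stages and reach 84.6% in the last group.

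In the WT PP list 48.3% of genes with a member (2138 of 4426) had a peak elsewhere on the gene, with a median of 503.5 input reads summed over its peaks. For the 2973 members on such genes the nearest WT PP peak was a median of 13802 nt away. It lay within 1000 nt for 11.9% of all members (709 peaks), and for 95 members (1.60%) it adjoined with no base between. For the remaining genes WT PP had no peak, which does not show that the RNA was unmethylated, because reads outside peaks were not analysed here.

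DRACH (D for any base but C, R for a purine, H for any base but G) was found on the transcript strand in 94.8% of members and GGAC in 48.6%, against 90.6% and 54.8% of all A5-KO PP peaks of this depth. At an equal exonic length of 175 nt DRACH was present in 97.8% of members and 97.9% of all A5-KO PP peaks, a share at the background. Per 1000 nt GGAC occurred 3.66 times in members and 3.05 times in the other exons of the same genes, a ratio of 1.20. The same ratio was 1.32 in shared multi-exon peaks, 1.36 in WT PP multi-exon peaks and 1.53 in single-exon A5-KO PP peaks. On the opposite strand it was 0.95 in members. For DRACH the ratio was 1.07 in members, 1.16 in shared multi-exon peaks, 1.03 in WT PP multi-exon peaks and 1.12 in single-exon peaks. At the same length GGAC was present in 48.0% (46.2 to 49.7) of members, 46.8% (43.4 to 50.1) of shared multi-exon peaks, 52.8% (48.2 to 57.3) of WT PP multi-exon peaks, 56.5% (52.2 to 60.8) of single-exon A5-KO PP peaks and 50.5% of all A5-KO PP peaks. The interval of the members overlapped those of both multi-exon sets and lay below that of the single-exon peaks.

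Members held a median of 145.5 input reads (quartiles 67 and 364) and 308.5 IP reads (140 and 863). Their deposited log2 enrichment had a median of 3.75 (quartiles 2.51 and 4.85), and p was below 1e-05 for 63.1%, against 65.6% of all A5-KO PP peaks of this depth. The study's methods state p below 1e-05 as the threshold for calling a peak. The remaining members did not reach it, although the deposited list holds them. The deposited enrichment is scaled by the peak caller, and the log2 ratio of the deposited counts had a lower median, 1.12. In 22.8% of members (1356 peaks, 21.7 to 23.9) the IP count was below the input count. The share was 21.8% (20.5 to 23.1) for shared multi-exon peaks and 16.9% (15.9 to 17.9) for single-exon A5-KO PP peaks. For WT PP multi-exon peaks it was 18.1% (16.5 to 19.9), and for all A5-KO PP peaks of this depth 17.6%.

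**Figure D5:**
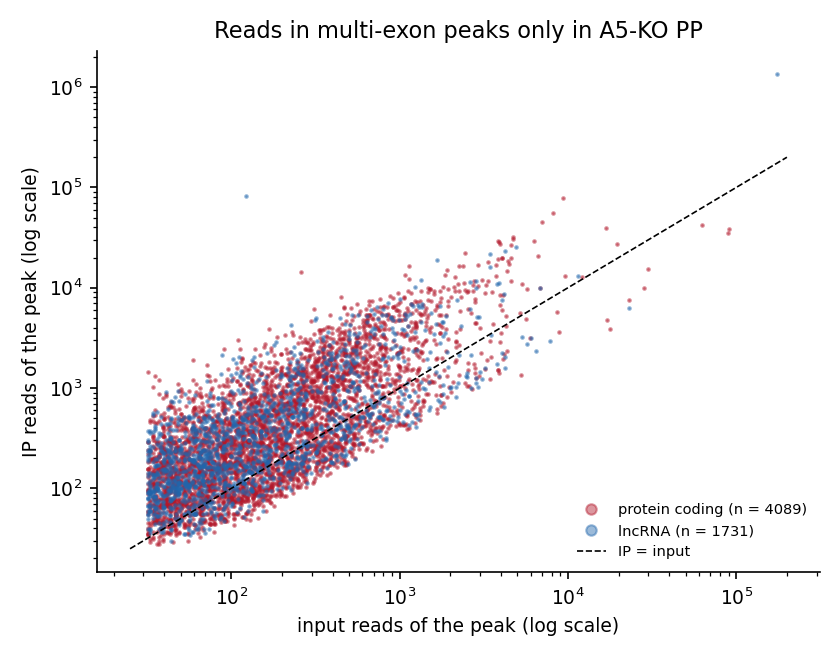
Input reads (x, log scale) and IP reads (y, log scale) of multi-exon peaks only in A5-KO PP, 1 point per peak, for protein-coding genes (red) and lncRNAs (blue); the dashed line marks equal counts. Both gene types fill the same range, 22.8% of all members lie below the line, and 1 lncRNA peak stands at the upper right with 174072 input and 1337918 IP reads.

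The 7 members described next, chosen for their input reads, were absent from all 4 stages and lay on genes with no WT PP peak. The lncRNA ENSG00000251523 (chr4:98500192-98509896, plus strand) held 174072 input and 1337918 IP reads over exons 3 to 4 of 4, with a log2 enrichment of 5.76. IMPA1P1, a pseudogene whose reads may be shared with its parent IMPA1, held 114286 input and 174022 IP reads. BRINP2, a neural protein, had 2 members (chr1:177171658-177229875 and chr1:177257295-177273572) with 91108 and 89091 input reads but 38582 and 34903 IP reads. These BRINP2 peaks were thus below equal counts, although their deposited log2 enrichments were 1.65 and 1.49. TREM2, a lipid receptor of myeloid cells (chr6:41159073-41159882), held 29984 input and 15380 IP reads. GRIN3A, an NMDA receptor subunit (chr9:101628308-101670140), held 28379 input and 9872 IP reads, and TMEM182, a membrane protein of muscle (chr2:102775423-102797844), held 23208 and 7541. Of these 7 peaks, 5 had fewer IP than input reads. Their counting errors were 0.0037 to 0.019 on the log2 scale, which assumes that counts were summed over libraries and leaves out any spread between cultures.

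Other members stood out by IP. MIR99AHG, the host gene of miR-99a and let-7c, held 81828 IP reads on 122 input reads (chr21:16357310-16383246), a log2 enrichment of 12.76 ± 0.13 (counting error). It was listed with 2 gene IDs. NFIB, a transcription factor of organ development, held 167 input and 3891 IP reads over 3 exons (log2 enrichment 7.83), with 4 WT PP peaks elsewhere on the gene. KIF6, a kinesin, and DDX60L, an antiviral helicase, held 113 and 109 input reads with 2459 and 3027 IP reads. ADGRL2, an adhesion receptor, held 450 input and 8157 IP reads over a span of 635 nt. HAND2-AS1, an lncRNA beside the transcription factor gene HAND2, held 111 input and 2037 IP reads over 3 exons and was seen in hPSC. GOLGA6L10 (259 input, 14259 IP reads) and DPY19L2 (187 input, 3205 IP reads) belong to families with near-identical copies, so the gene of origin is uncertain. GOLGA6L10 was the 1 of these 8 with a peak in all 4 stages.

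Of lncRNA members, 5 more had the highest input. LINC02201 (chr5:122641158-122697265) held 23149 input and 6256 IP reads, PDE7B-AS1 7819 and 2937, and MLF1-DT 6493 and 2315, all 3 with fewer IP than input reads. ENSG00000268266 held 6865 input and 9902 IP reads, and ZNF213-AS1 11467 and 13243. ZNF213-AS1 was the only one of the 5 with WT PP peaks on the gene, 9 with 3257 input reads, the nearest 76 nt away. None of the 5 was found in a stage.

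Of the 125 members with a peak in all 4 stages, the 6 with the most input reads are given. PAIP2B, a translational repressor that binds poly(A)-binding protein, held 16730 input and 39142 IP reads across exons 1 and 2, with a log2 enrichment of 4.23. Its stage peaks held 184 (PP) to 329 (DE) input reads and had log2 enrichments of 1.25 to 1.65, each list being scaled on its own. SON, a splicing cofactor, held 3278 input and 10766 IP reads. Its span of 3068 nt had 25 nt of exon, in exons 1 and 2, and its stage peaks held 194 to 1233 input reads. WT PP had 11 other SON peaks, with 11865 input reads. PABPN1, the nuclear poly(A)-binding protein, held 2785 input and 4484 IP reads but was listed with 3 gene IDs. PPM1A, a protein phosphatase, held 1726 and 1058, and DIAPH3, a formin, 1177 and 623, both with fewer IP than input reads. INO80C, a subunit of the INO80 chromatin remodeler, held 1332 input and 2219 IP reads, and a WT PP peak of the gene adjoined it.

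Some genes carried runs of members. A single member lay on 3441 genes (77.7%), 2 on 660, 3 on 199, 4 on 77 and 5 or more on 49. INPP4B, a phosphoinositide phosphatase, had 9, with 34 to 146 input reads (median 49), 60 to 173 IP reads (median 112) and log2 enrichments of 0.86 to 5.14. Their spans covered 66.3% of the 824 kb gene but only 2495 nt of exon. NALCN, a sodium leak channel, had 8 with 103 to 4557 input reads (median 595.5) and 85 to 11751 IP reads, highest at exons 1 and 2. DNAH9, an axonemal dynein heavy chain, had 8 with 84 to 3847 input and 126 to 5545 IP reads. No WT PP peak was listed on these 3 genes. PDE4D, a cAMP phosphodiesterase, had 8 over 63.4% of its 1553 kb, with 66 to 711 input and 115 to 458 IP reads. WT PP had 5 other peaks on PDE4D, with 190 input reads in all. A stage peak overlapped 1 of the PDE4D members and none of the members on the other 3 genes.

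Gene lists were read against the share of all genes with an A5-KO PP peak of this depth that carried a member (33.4%, 4426 of 13264). A member was carried by 17 of 33 collagens (51.5%) and by 5 of 10 laminins. COL4A3, a basement membrane collagen, held 4698 input and 32122 IP reads at exons 36 and 37 (chr2:227290066-227290898, log2 enrichment 5.71), and WT PP had no peak on it. LAMA2, the alpha 2 chain of laminin, had 2 of the best-covered members, with 1619 and 1224 input and 5985 and 3100 IP reads, also without a WT PP peak. No member was assigned to any of the 9 PP markers or 7 SR splicing factors with a peak. The share was 1 of 16 for ribosomal proteins (RPL39L), 1 of 8 for snoRNA host genes (SNHG14), 1 of 6 for liver markers (TTR), and 47 of 391 (12.0%) for genes named ZNF. The liver marker TF was also listed for a member, as 1 of 2 gene IDs, and that peak was assigned to the other gene. For SNHG14 the peak held 1801 input and 1076 IP reads, and 45 gene IDs were listed for it. Of m6A factors 3 of 17 carried a member, the demethylase FTO, the writer subunit VIRMA and the reader IGF2BP3. Of chromatin regulators 6 of 20 did, ARID1B, CHD3, CHD9, KMT2A, SETD2 and SMARCA2. SETD2, which trimethylates histone H3, held 1169 input and 4592 IP reads over 3 exons and was found in all 4 stages, and WT PP had 14 other peaks on it. ZNF490 was found in 2 stages (1472 input, 5370 IP reads), whereas ZNF618, ZNF626 and ZNF789, with 1170 to 1612 input reads, were found in none. The lists differ in gene length and exon number, and the part of these in the shares was not tested.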

How the data were processed

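m6A-seq of 24 libraries (12 groups of 2) was used as 6 deposited peak lists. Per the study's methods the authors used fastp for trimming, HISAT2 for strand-aware alignment to GRCh38 (1 alignment kept per read) and exomePeak2 for peaks, with IP and input of a population together. For each peak the authors deposited pooled read counts of IP and input, a log2 enrichment of IP over input, and a p-value. Their adjusted p-values were not used here. Whether the counts are sums or means over libraries is not given in the sources used here. Nor is it given whether they hold reads from introns inside a span. Library totals were not used here, so depth is given as reads inside peaks. No values per library were analysed here, so no test was made.

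Spans were matched by gene ID and strand to GENCODE 44 and reduced to merged exons. In A5-KO PP 77 peaks without a match were left out. Where several gene IDs were given, their exons were joined and the peak was assigned to the gene sharing most exonic bases. Overlap meant 1 shared base of the spans on the same strand. Midpoints were placed on the longest coding isoform. Motifs were read from GRCh38, and counting errors were computed with 0.5 added to each count and with the pooled counts taken as sums over libraries. Named peaks were the 8 with most input, the 8 with the highest log2 enrichment at 100 or more input reads, the 6 with most input in all 4 stages and on lncRNAs, the 10 with most input on listed genes, the 5 genes with most peaks and the 4 junction sequences. Some items that this rule selects are not reported here. Peaks, lists and rules were chosen with earlier results of these data known. Alternatives varied the overlap, input minimum, peak threshold, exon model, stop codon window, motif and enrichment measure. Python 3.11.15, pandas 2.3.3, numpy 2.4.6 and scipy 1.17.1 were used, and the steps were tested on simulated data.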

Additional observations from a re-analysis of the deposited data

How the results depend on the processing

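Of 97 values recomputed under alternative settings, 64 stayed within the interval of the main value, or within 1.5 times a count, and 33 moved beyond it. None turned the order of gene types. With exons of the longest isoform in place of merged exons, the peaks fell from 5948 to 3328, since fewer exons can be touched. The protein-coding share was then 70.6%, the lncRNA share 26.4%, the median exon 156 nt, the CDS share 86.8%, the DRACH share 93.4%, genes with a WT PP peak 42.9% and listed genes with a member 45 in place of 81. With p below 1e-05 in every list, which also removes WT PP and stage peaks, the shares were 72.4% protein-coding, 25.6% lncRNA, 11.1% near the stop codon, 10.1% with an hPSC peak, 9.88% with a DE peak, 8.97% with a PP peak, 15.8% with an hILO peak, 51.9% with GGAC and 44.9% of genes with a WT PP peak, the median exon 208 nt and the median log2 enrichment 4.51. With an IP/input ratio of at least 3 the median exon was 200.5 nt, the share in DE 5.92% and in hILO 5.58%, and the median log2 enrichment 3.91, so that hILO no longer had the highest stage share. A minimum of 64 input reads gave 70.5% protein-coding and 27.3% lncRNA, and a minimum of 16 gave 67.5% protein-coding. Overlap of more than 50% of exonic length gave 4.89% for hPSC, 5.20% for DE, 3.45% for PP and 7.01% for hILO. A 100 nt stop codon window gave 3.56%, GGACT in place of GGAC 20.0%, and the log2 ratio of counts a median enrichment of 1.12. Apart from these constructions the cause was not tested.

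The peaks rest on 1 pooled list per genotype, and absence from a list is not absence of methylation. Depth, knockout line and batch limit the comparisons, and intervals do not hold the spread between cultures. No paired analysis was possible because only values pooled over libraries were analysed here, and leaving out each replicate and the replicate block were not run for the same reason.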
